A study of Mus musculus with 42 samples.

Results

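The glutathione S-transferases, UDP-glucuronosyltransferases and cytosolic sulfotransferases of the mouse were examined in ear skin, aorta and liver of mice on 3 diets. They were chosen by gene name: every gene of the deposited counts named Gsta, Gstk, Gstm, Gsto, Gstp, Gstt, Gstz, Ugt1, Ugt2, Ugt3 or Sult with a gene number was taken, and names of pseudogenes were left out. This gave 63 of 48709 genes, with 21 genes in each of the Gst, Ugt and Sult families. All mice were K14-Rac1V12 transgenics, in which the keratin 14 promoter of basal keratinocytes drives active Rac1, a small GTPase, and which are used as a psoriasis model. There was no group without the transgene or on ordinary chow. Chow deficient in omega-3 fatty acids (OD) was fed for 2 weeks, and at 14 weeks of age 5 mice per diet were assigned for 12 weeks to OD or to a diet with added EPA (eicosapentaenoic acid) or DHA (docosahexaenoic acid). The stated dose was 3 g per kg of diet, set to match 4 g per day in a human, and the label of the DHA group names EPA for its dose. Each tissue had 4 OD, 5 EPA and 5 DHA libraries, 42 in all. The labels give no batch and do not tie a library to a mouse, so p-values measure the spread between these libraries.

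All 3 families belong to the conjugating, or second, phase of detoxification. Glutathione S-transferases join the thiol of glutathione to electrophiles such as the aldehydes formed when polyunsaturated lipids are oxidised. Glucuronosyltransferases transfer glucuronic acid from UDP-glucuronate to bilirubin, steroids and drugs, and sulfotransferases transfer a sulfonate group from the donor PAPS to phenols, steroids and bile acids. Hepatocytes carry most of this capacity, and in mouse liver a number of the genes are known to be set by the sex-specific pattern of growth hormone.

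Skin libraries were the shallowest, with totals of 40157 to 220488 counts, against 179795 to 717508 for aorta and 343824 to 768532 for liver. A count of 3 was worth 13.6 to 74.7 CPM (counts per 1000000 counts) for skin, 4.18 to 16.7 for aorta and 3.90 to 8.73 for liver. The assay counts a tag at the 3′ end of each transcript, so levels are not divided by length, and they are given below as normalised CPM scaled within a tissue. Xist, the RNA that coats the inactive X chromosome of female cells, exceeded 200 CPM in 3 of 14 libraries of every tissue (EPA 1, EPA 5 and DHA 1), and the labels do not give sex. These libraries held at most 2 counts of 4 Y-linked genes. None was on OD, so sex and diet cannot be fully told apart in contrasts against OD. Hepatocyte transcripts were counted in every library of the other tissues, with 44 to 99 counts of albumin mRNA in skin and 69 to 204 in aorta. The mean levels of 14 hepatocyte markers in skin were 10.7 to 20.4 per 1000 of their liver level, and in aorta 4.24 to 6.98 per 1000.

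Not every gene had a 3′ end of its own. All 63 were found in GENCODE M21 (GRCm38), the build that the submitters' processing notes name. Over the last 300 bases of the longest coding transcript, 40 genes had no stretch of 50 bases in common with another gene, 8 shared up to 50% of such stretches and 15 shared more. The 9 Ugt1a genes on chromosome 1 have alternative first exons and common 3′ exons, and 8 of them shared 100% of their ends with one another. The ends of Gstp1 and Gstp2 on chromosome 19 were identical, and Gsta1 and Sult2a2 shared 82.1% and 76.9% with neighbouring genes. How the authors assigned such tags is not given in the sources used here, so a row of Ugt1a, Gstp, Gsta1, Gsta2 or Sult2a1 to Sult2a6 is uncertain as a measure of that gene alone.

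Liver held the broadest set. Of the 63 genes, 55 had at least 1 count in liver, 51 in aorta and 43 in skin. The Gst genes summed to 2284 ± 286 CPM in liver (SD, n = 14), 939 ± 53.9 in aorta and 652 ± 124 in skin. The Ugt genes summed to 2332 ± 250 CPM in liver, 45.4 ± 17.8 in aorta and 156 ± 111 in skin. For the Sult genes the sums were 1258 ± 211 CPM in liver, 76.8 ± 24.8 in aorta and 93.1 ± 37.8 in skin. Conjugation with glutathione was thus represented in all 3 tissues, while the other families were largely counted in liver.

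In a fit of all 42 libraries 37 of the genes had enough counts to be tested, 16 Gst, 14 Ugt and 7 Sult. A gene could enter through the tissue in which it was high, so the counts are read against all 9912 genes tested. By edgeR's quasi-likelihood test at a Benjamini-Hochberg adjusted p of 0.05, 32 of 37 were higher in liver than in aorta and 3 were lower. Of all tested genes 30.5% were higher and 35.6% lower. Against skin, 30 were higher in liver and 3 lower, beside 33.9% and 37.4% of all genes. Between aorta and skin, 11 were higher in aorta and 8 lower, beside 33.9% and 28.9% of all genes, and 18 did not pass. The median log2 difference of the 37 was 5.35 for liver minus aorta and 6.33 for liver minus skin, where that of all genes was -0.12 and -0.13.

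These contrasts depend on how tissues of unlike composition are scaled. With total counts in place of TMM scaling, the median of all genes moved to -0.81 for liver minus aorta, -1.31 for liver minus skin and -0.42 for aorta minus skin. The share of all called genes that were higher went from 46.2% to 21.3% in the first contrast, from 47.5% to 19.8% in the second and to 35.0% in the third, where 3363 had been higher and 2865 lower under TMM. Among the transferases 29 were then higher and 5 lower in liver than in aorta, 28 and 5 in liver against skin, and 8 and 9 in aorta against skin, where the share of calls higher in aorta went from 57.9% to 47.1%.

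**Figure D1:**
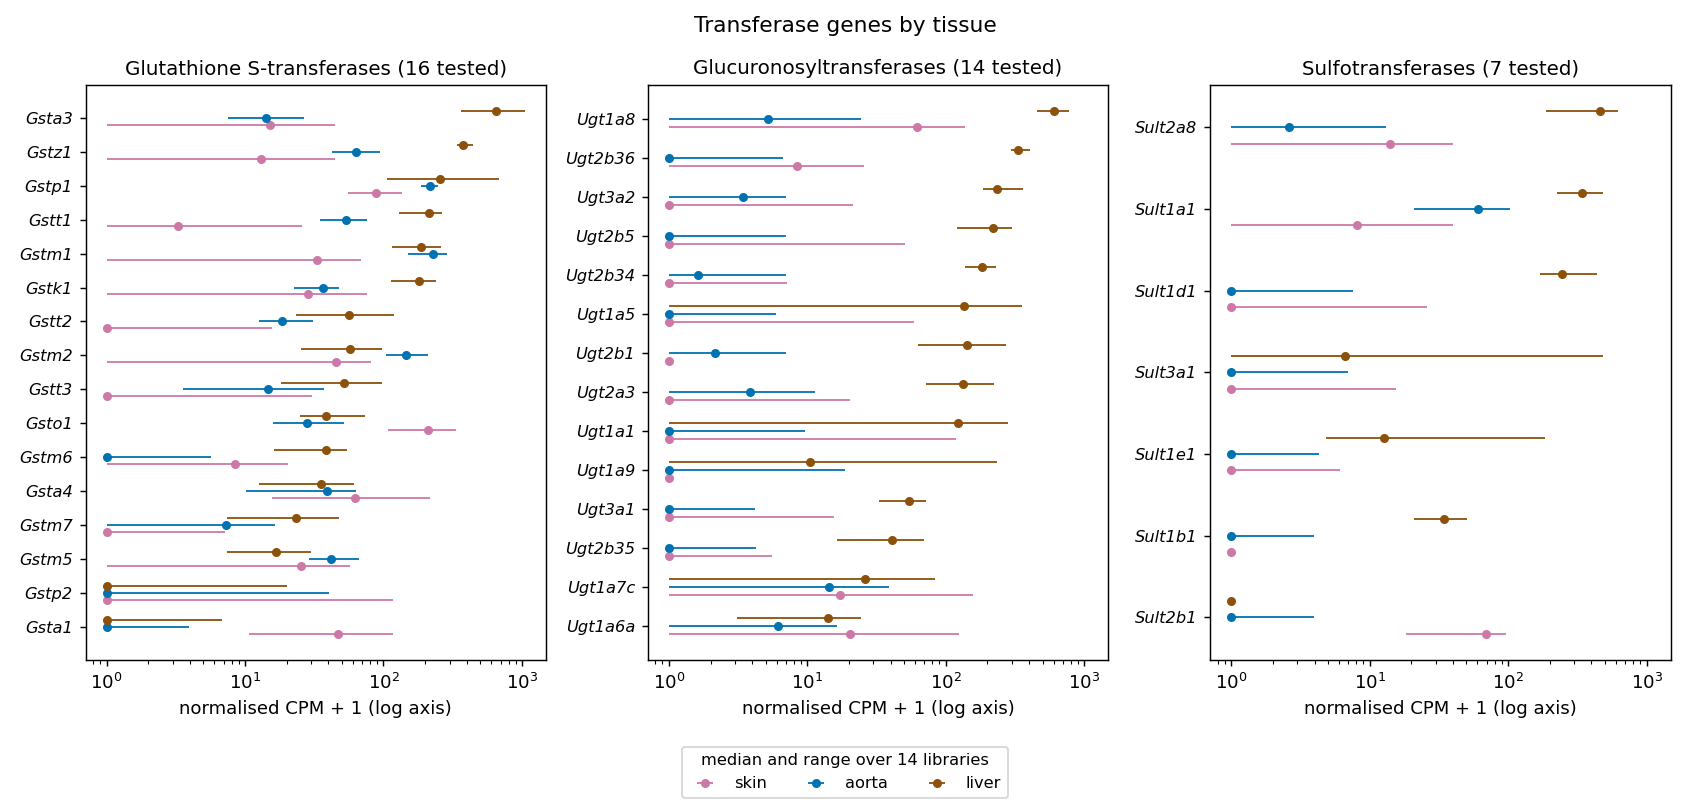
Normalised CPM plus 1 on a log axis of the 37 tested transferase genes, by family. Points are medians and lines the lowest and highest of 14 libraries in skin, aorta and liver. Most glucuronosyltransferases and sulfotransferases sit at or near 0 outside liver, while glutathione S-transferases spread over all 3 tissues. Medians of Gsto1, Sult2b1, Gsta1, Gsta4 and Ugt1a6a are highest in skin. Levels are scaled within each tissue, so medians alone do not give the direction between tissues. Gsta4 and Ugt1a6a did not pass for liver minus skin under TMM.

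Among the glutathione S-transferases of liver, Gsta3, an alpha-class enzyme that in mice detoxifies the epoxide of aflatoxin, had the highest level. It was counted at 364 to 1050 CPM in liver (median 649), at 6.60 to 25.6 in aorta (median 13.2) and at 0 to 43.6 in skin (median 14.1). Liver stood apart from both other tissues with no overlap, by 6.28 ± 0.19 (log2 ± SE) over aorta and 7.16 ± 0.25 over skin. Next came Gstz1, the maleylacetoacetate isomerase of tyrosine breakdown, at 339 to 444 CPM in liver and 41.4 to 93.2 in aorta. Gstp1, Gstt1, Gstm1 and Gstk1 followed with liver medians of 256, 213, 185 and 180 CPM.

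Some mu-class genes ran the other way. Gstm2 was at 103 to 207 CPM in aorta and 24.5 to 97.3 in liver, with a log2 difference of -0.69 ± 0.15 for liver minus aorta (adjusted p = 8.7e-05, edgeR's quasi-likelihood test). For Gstm5 that difference was -0.57 ± 0.18 (adjusted p = 0.00518). Both are cytosolic glutathione S-transferases of the mu gene cluster on chromosome 3. Gstp2 was the third gene below aorta in liver, but its row was counted in 6 of 14 aorta libraries and shares its 3′ end with Gstp1. Gstm1 had similar levels, 149 to 284 CPM in aorta and 113 to 260 in liver. Its direction turned with the scaling, with log2 values for liver minus aorta of 0.41 under TMM and -0.31 under total counts, each past the threshold. For Gsta4 the same contrast went from 0.69 to -0.02.

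Skin had its own short list. Gsto1, an omega-class enzyme that reduces dehydroascorbate, was at 107 to 331 CPM in skin, 24.0 to 72.9 in liver and 15.0 to 50.8 in aorta, without overlap between skin and either other tissue. It was lower in liver than in skin (log2 change -1.16 ± 0.18) and in aorta than in skin (-2.28 ± 0.19). Sult2b1, the cholesterol sulfotransferase of the epidermis, whose product takes part in the shedding of the cornified layer, was counted at 17.4 to 95.7 CPM in all 14 skin libraries. In aorta it had 3 counts in total, and in liver it had 0 counts in every library. Gsta1 reached 9.77 to 116 CPM in skin against 0 to 2.96 in aorta and 0 to 5.85 in liver, with an end it shares with Gsta2. The median of Gsta4 was also highest in skin, at 60.8 CPM against 38.1 in aorta and 34.5 in liver. Under TMM it was lower in aorta than in skin (-0.85 ± 0.28) and did not pass between liver and skin. With total counts Gsta4 was lower than in skin both in aorta (-1.33 ± 0.27) and in liver (-1.35 ± 0.27), each past the threshold. The cells that carry these transcripts in whole ear were not measured.

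The glucuronosyltransferases of liver were led by the Ugt1a8 row at 454 to 772 CPM, then Ugt2b36 at 292 to 407, Ugt3a2 at 185 to 360, Ugt2b5 at 119 to 301 and Ugt2b34 at 137 to 230. Ugt2b genes lie together on chromosome 5 and are known for steroid and drug substrates. In aorta and skin 0 Ugt genes had enough counts for a diet test, against 13 in liver. Most could thus enter the fit of all tissues through liver, so the direction of their calls was largely set by the filter. All 14 tested Ugt genes were higher in liver than in aorta, beside 30.5% of all genes. Against skin 13 of 14 were higher in liver, beside 33.9%. The exception was the Ugt1a6a row, which did not pass for liver minus skin (0.59 ± 0.39, adjusted p = 0.171, edgeR's quasi-likelihood test). With total counts its log2 value was -0.60, also not past the threshold. Its medians, 19.4 CPM in skin and 13.1 in liver, are scaled within each tissue and do not give the direction of that contrast.

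Of the Ugt1a rows, Ugt1a1, Ugt1a5 and Ugt1a9 were at 0 in some livers and high in others. In liver the Ugt1a1 row ran from 0 to 282 CPM, Ugt1a5 from 0 to 352 and Ugt1a9 from 0 to 233, and these were counted in 12, 13 and 7 of 14 libraries. OD 1, for example, had 0 CPM of Ugt1a1, 323 of Ugt1a5 and 76.7 of Ugt1a9, while OD 4 had 138, 277 and 0. Ugt1a1 is the enzyme that conjugates bilirubin. The sum of the Ugt1a rows was 638 to 1487 CPM over all livers, 40.6 to 369 in skin and 6.59 to 56.6 in aorta.

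Sulfotransferases in liver were led by Sult2a8, a mouse enzyme that sulfonates bile acids, at 185 to 617 CPM, and by Sult1a1, which sulfonates phenols, at 226 to 487. Sult1d1 was at 170 to 435 CPM and Sult1b1, which accepts thyroid hormones, at 19.9 to 49.5. Sult1a1 was the single sulfotransferase with enough counts for a diet test in aorta, at 19.8 to 103 CPM. It was higher in liver than in aorta by 3.15 ± 0.16 and higher in aorta than in skin by 3.47 ± 0.36. Sult4a1 and Sult6b1 had 5 counts and 1 count in aorta and none in the other tissues, and Sult1c1 and Sult6b2 had none anywhere.

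For some of the genes the level in skin or aorta, relative to liver, was no higher than that of hepatocyte markers. Of the 30 genes with at least 30 CPM in liver, 8 were at or below the highest hepatocyte marker ratio in skin and 6 in aorta. In skin these 8 had 0 to 6 counts each in total, too few to place them by that ratio. In aorta Sult1d1, Sult2a8, Ugt2b5, Ugt2b36, Ugt1a1 and Ugt1a5 were at 2.40 to 6.08 per 1000 of liver. Of these, Ugt1a1 and Ugt1a5 were counted in 1 aorta library each. Ugt3a1, Ugt2b35 and Ugt2b34 lay just above the markers in aorta, at 7.37, 7.79 and 8.15 per 1000, on 3, 2 and 8 counts in total. Counts this low cannot place a gene above or below the marker ratio. More than 10 times above the highest marker ratio stood 5 genes in skin (Gsto1, Gsta4, Gstm2, Gstp1 and Gstm6) and 11 in aorta (Gstm2, Gstm1, Gsta4, Gsto1, Gstp1, Gstt2, Gstt3, Gstt1, Gstk1, Sult1a1 and Gstz1). In skin Gstm6 stood at 214 per 1000, on 13 counts in total, so its place past that mark is uncertain. Ugt1a8 in skin was at 94.8 per 1000 of its liver level.

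**Figure D2:**
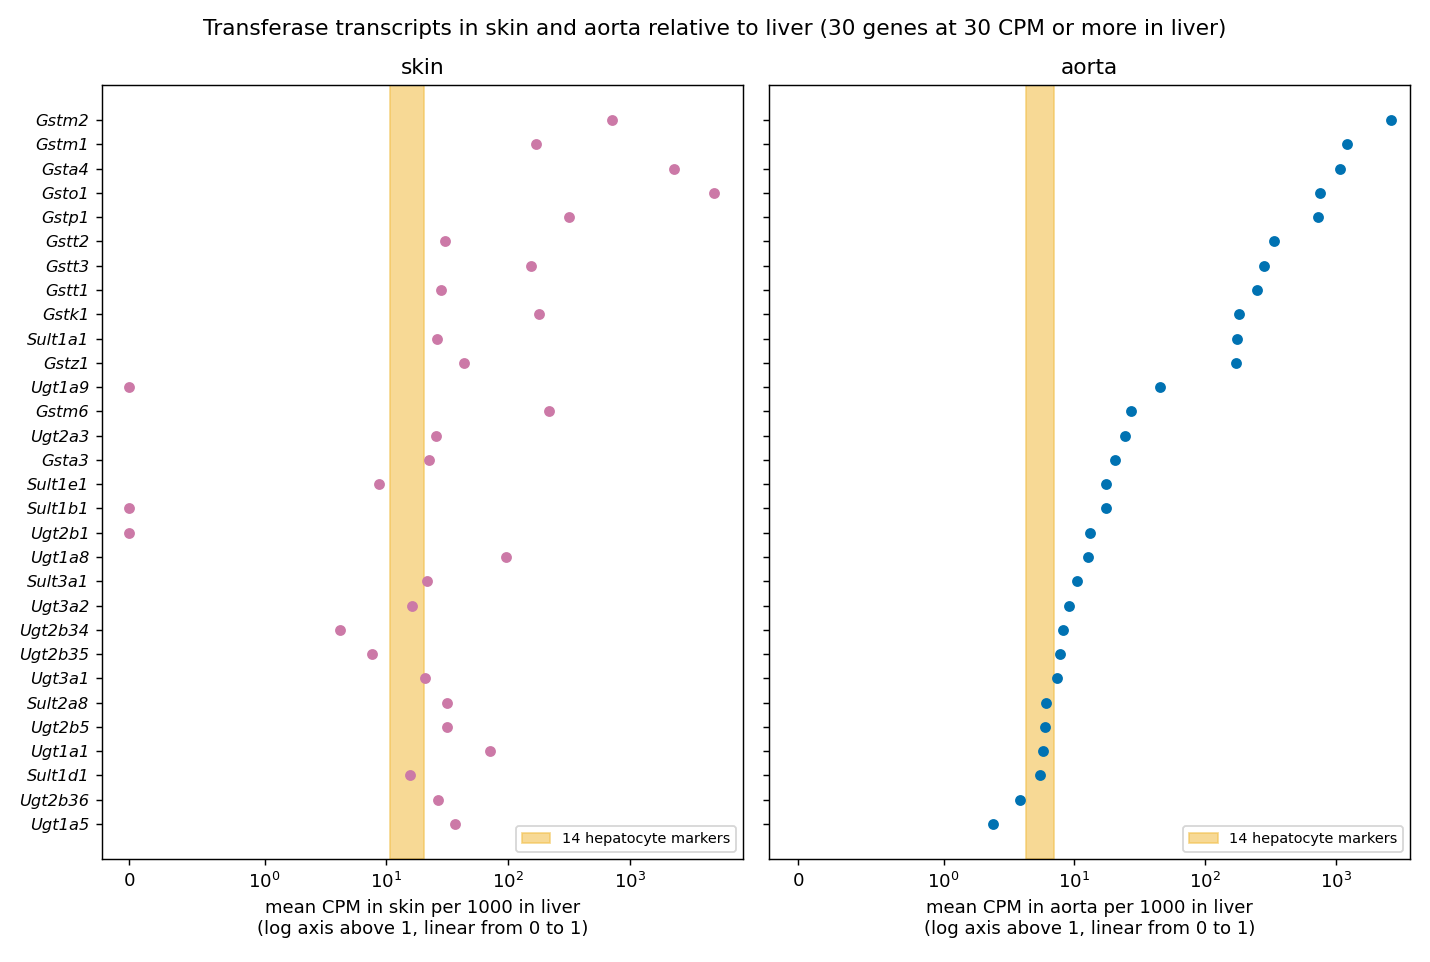
Mean CPM in skin (left) and aorta (right) per 1000 CPM in liver for the 30 transferase genes at 30 CPM or more in liver, on a log axis that is linear between 0 and 1. The shaded band spans 14 hepatocyte markers, 10.7 to 20.4 in skin and 4.24 to 6.98 in aorta. In aorta 6 genes lie in or below the band and 11 lie beyond 10 times its upper edge.

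The diet contrasts asked whether EPA or DHA changed these genes in a tissue and whether the fatty acids differed. In aorta, where 12 of the genes were tested (11 Gst and Sult1a1), Gsta4 rose on DHA and no other gene passed. Of all 6538 genes tested, 4.88% passed for DHA minus OD, 0.275% for EPA minus OD and 0% for EPA minus DHA. Among the 12, the counts that passed were 1, 0 and 0 by edgeR's quasi-likelihood test, with 4, 1 and 2 at an unadjusted p under 0.05, beside 17.5%, 12.6% and 3.46% of all genes, and DESeq2's test called 0 in each. The median log2 change of the 12 was 0.02 on DHA and -0.11 on EPA, against -0.05 and -0.02 for all genes. The 2 contrasts against OD share the same 4 OD libraries.

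Gsta4 encodes the alpha-class enzyme with high activity toward hydroxynonenal, an aldehyde from oxidised polyunsaturated lipids. In aorta its level was 60.2, 32.3, 13.4 and 9.20 CPM in the OD libraries, 29.7, 39.9, 15.6, 28.1 and 41.0 on EPA, and 56.3, 36.3, 60.2, 62.0 and 53.8 on DHA. Of the DHA libraries 4 of 5 lay above every EPA library, and all 5 lay above 3 of 4 OD libraries. The remaining OD library, OD 1, is the shallowest of the aortas and its 60.2 CPM rests on 10 counts. Means were 28.8 ± 23.2 CPM on OD (SD, n = 4), 30.8 ± 10.3 on EPA and 53.7 ± 10.3 on DHA (n = 5 each). The log2 change was 1.22 ± 0.34 for DHA minus OD (adjusted p = 0.0402, edgeR's quasi-likelihood test), 0.46 ± 0.37 for EPA minus OD (adjusted p = 0.698) and -0.77 ± 0.31 for EPA minus DHA (adjusted p = 1.00).

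The call for Gsta4 was a narrow one. Leaving out 1 library at a time gave changes of 0.89 to 1.56 in 14 fits, and the call was lost in 6 of them. The adjusted p was 0.175 without OD 3, 0.217 without OD 4, 0.0755 without DHA 1, 0.0849 without DHA 3, 0.0958 without DHA 4 and 0.0712 without DHA 5. Markers of fat cells moved with diet in the same libraries, although perivascular fat was removed per the labels. The 5 adipocyte markers summed to 2845 to 5118 CPM in OD aortas, 3482 to 8018 in EPA and 6401 to 7576 in DHA. On DHA 2 of these 5 were higher past the threshold and 1 of 5 smooth muscle markers was lower. Of all 6538 genes 280 were higher and 39 lower. With the mean of these markers as a covariate, a fit added after seeing the data, the change of Gsta4 on DHA was 0.45 ± 0.52 (adjusted p = 0.941). The marker sums of OD and DHA aortas did not overlap. The covariate was the mean log2 level of the markers, for which overlap is not given here. With markers so closely tied to diet, this fit cannot cleanly tell diet and markers apart. No conclusion is drawn from it. In these bulk samples a different number of cells of a type and a different amount of RNA per cell cannot be told apart.

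Gstz1 did not pass the threshold, though its groups were separate. Its level was 42.2, 48.5, 46.8 and 41.4 CPM in the OD aortas, 62.7, 93.2, 57.1, 86.5 and 70.0 on EPA and 62.2, 52.7, 80.9, 84.2 and 81.9 on DHA. Every EPA and DHA library was above every OD library. The log2 change was 0.71 ± 0.20 on EPA (adjusted p = 0.0869) and 0.69 ± 0.20 on DHA (adjusted p = 0.0521), neither past the threshold. Leaving out 1 library at a time gave adjusted p of 0.0410 to 0.192 on DHA and 0.0405 to 0.313 on EPA. The threshold was passed on DHA without EPA 1 (0.0455), EPA 2 (0.0499) or DHA 2 (0.0410), and on EPA without EPA 1. With the adipocyte markers as a covariate the changes were 0.44 ± 0.27 on EPA (adjusted p = 0.961) and 0.38 ± 0.29 on DHA (adjusted p = 0.874). For DHA this fit has the limit given for Gsta4.

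No other transferase of the aorta passed. The Gstp2 row, counted in 6 of 14 aortas, had log2 changes of -0.99 ± 1.16 on EPA and 1.07 ± 0.89 on DHA, with errors near the size of the changes. Gsto1 had an EPA minus DHA value of -0.76 ± 0.32 (adjusted p = 1.00, edgeR's quasi-likelihood test), and Gstt1 a change of -0.43 ± 0.20 on DHA (adjusted p = 0.272). Gstm2, among the 3 genes with the smallest p over the diets, was at 139, 169, 179 and 207 CPM on OD, 145, 168, 151, 112 and 135 on EPA and 175, 145, 103, 124 and 122.9 on DHA. The diets overlapped, and its log2 changes of -0.33 ± 0.16 on EPA (adjusted p = 0.419) and -0.44 ± 0.17 on DHA (adjusted p = 0.147) did not pass. Gstm1, the most abundant, was at 205, 261, 223 and 248 CPM on OD, 224, 235, 262, 227 and 225 on EPA and 202, 214, 149, 250 and 284 on DHA. Sult1a1 was at 30.1, 79.6, 71.9 and 38.3 CPM on OD, 19.8, 51.6, 67.5, 103 and 47.8 on EPA and 44.5, 92.3, 80.9, 68.4 and 51.2 on DHA. Both overlapped fully between diets. The leading Ugt row of the aorta, Ugt1a7c, was at 36.1, 13.7, 6.69 and 10.7 CPM on OD, 0, 19.97, 18.2, 18.7 and 10.2 on EPA and 0, 0, 37.6, 14.3 and 12.8 on DHA, too low for a test. Gstm1 and Gstp1 had narrow intervals. Their log2 changes were -0.03 ± 0.16 and 0.06 ± 0.13 on EPA and -0.13 ± 0.16 and 0.01 ± 0.13 on DHA, with 95% intervals from -0.44 at the lowest to 0.32 at the highest.

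**Figure D3:**
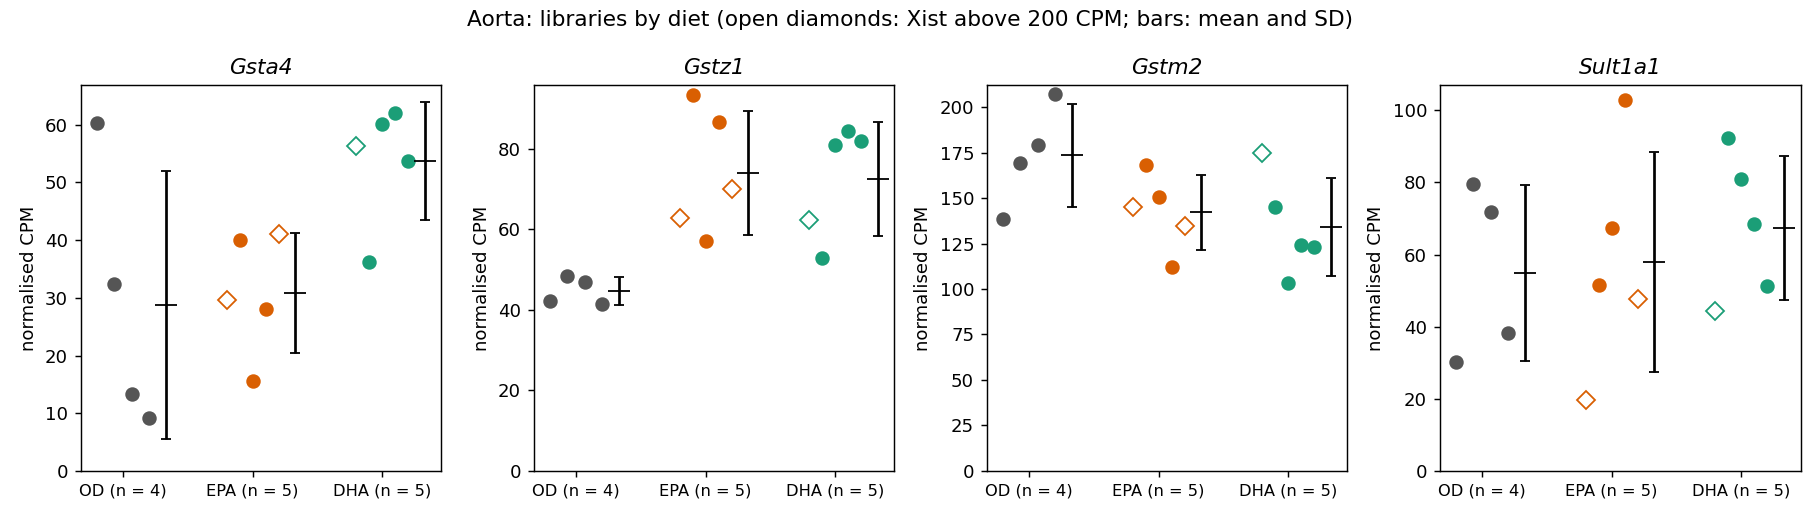
Normalised CPM of 4 transferase genes in each aorta library by diet, with mean and SD beside the points (n = 4 OD, 5 EPA and 5 DHA). Open diamonds are libraries with Xist above 200 CPM. DHA libraries of Gsta4 lie at 36.3 to 62.0 CPM with 1 OD library among them, and the OD libraries of Gstz1 lie at 41.4 to 48.5 CPM below all others.

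Genes that supply or control these enzymes were taken from lists of 7 kinds. In aorta 280 of all 6538 tested genes rose past the threshold on DHA and 15 on EPA, while 39 and 3 fell. The list of the NRF2 system, the transcription factor that answers oxidants, had 18 of 23 genes tested. Of these, 5 rose on DHA and 2 on EPA, and 0 fell. Those that rose were the NADPH-producing genes G6pdx (1.41 ± 0.20 on DHA, 1.04 ± 0.20 on EPA) and Pgd (1.32 ± 0.23 and 1.24 ± 0.23) on both diets, and Tkt (1.34 ± 0.27), Me1 (1.04 ± 0.27) and Taldo1 (0.80 ± 0.19) on DHA. These enzymes belong to the pentose phosphate pathway or to fatty acid synthesis and are also used by adipocytes. With the adipocyte markers as a covariate 0 of all genes passed for DHA minus OD. The marker sums of OD and DHA aortas did not overlap, and that fit has the limit given for Gsta4. The quinone reductase Nqo1, a standard NRF2 target, had too few counts for a test, at 16.1 ± 7.75 CPM on OD, 12.9 ± 2.38 on EPA and 11.3 ± 6.23 on DHA. Gclc, the catalytic subunit of glutathione synthesis, was at 36.4 ± 3.90, 30.3 ± 9.04 and 35.2 ± 7.17 CPM and did not pass. The list median was 0.20 on DHA and 0.19 on EPA, against -0.05 and -0.02 for all genes.

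Microsomal glutathione transferase Mgst1, which belongs to another protein family and also marks sebaceous glands, was at 348 ± 73.7 CPM in aorta on OD, 502 ± 108 on EPA and 533 ± 41.9 on DHA. It rose on DHA by 0.62 ± 0.17 (adjusted p = 0.0402) and did not pass on EPA (0.55 ± 0.17, adjusted p = 0.128). Of xenobiotic and lipid-sensing receptors 1 of 5 tested rose on DHA, beside 280 of all 6538 genes. This was the adipocyte regulator Pparg (0.82 ± 0.24, adjusted p = 0.0496, edgeR's quasi-likelihood test). None of the 10 tested genes of glutathione synthesis and turnover passed on either diet, nor did any of 5 for UDP-glucuronate, 10 for PAPS and sulfatases and 4 for export of conjugates. The lists were drawn up with earlier results of these data known, so their counts are a description.

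In liver 34 of the genes were tested (15 Gst, 13 Ugt and 6 Sult) and 0 passed in any of the 3 contrasts, as did 0% of 5018 genes. At an unadjusted p under 0.05 there were 7 of 34 for EPA minus OD, 4 for DHA minus OD and 1 for EPA minus DHA, beside 6.7%, 6.16% and 3.67% of all genes, and DESeq2's test called 0 in each. The median log2 change of the 34 was -0.00 on EPA and -0.12 on DHA. Changes of most genes were small relative to their errors, and the widest were in rows that were near 0 in some livers.

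**Figure D4:**
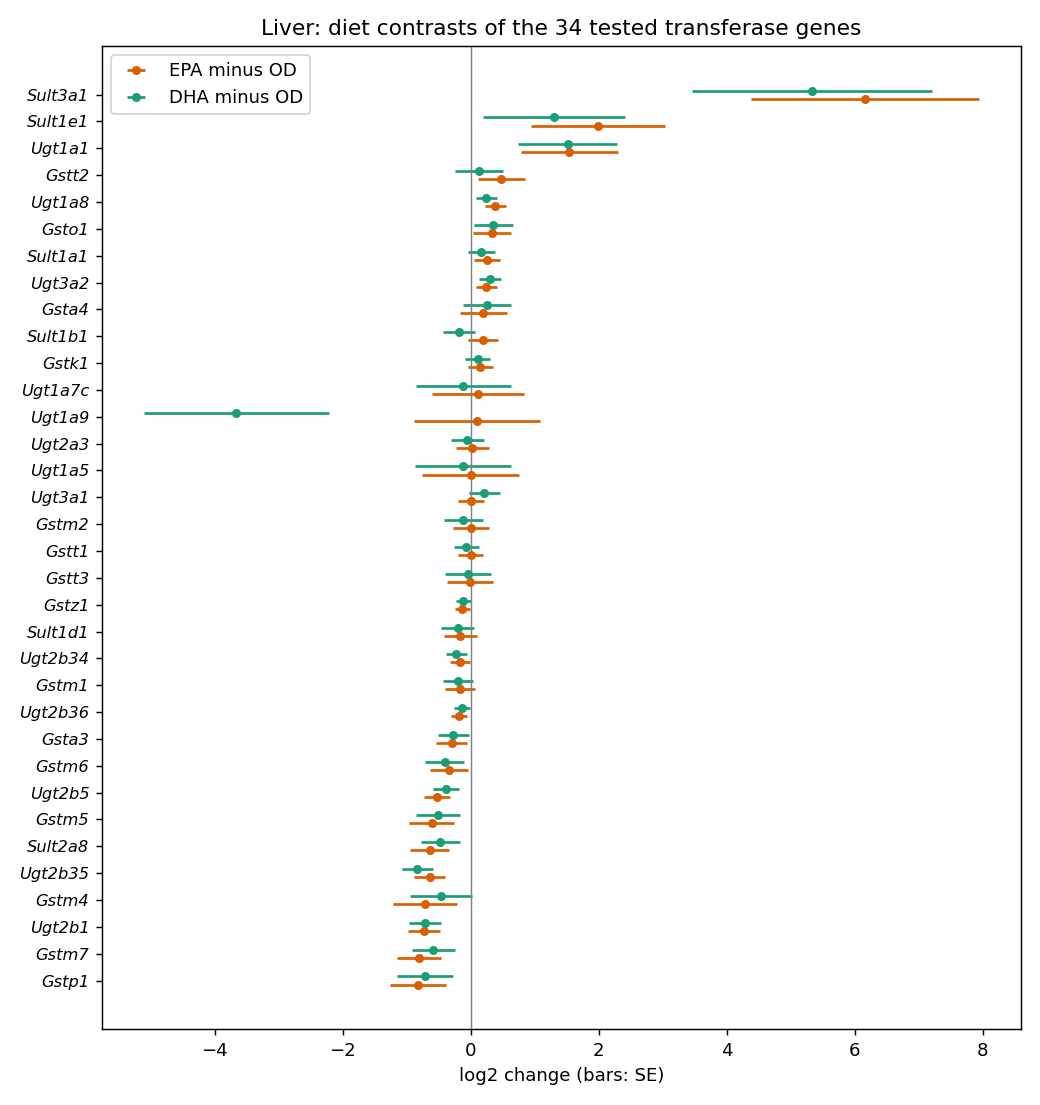
Log2 change with SE of the 34 tested transferase genes in liver, for EPA minus OD and DHA minus OD, ordered by the change on EPA. Sult3a1 stands at 6.16 and 5.33 with wide errors, Ugt1a9 at -3.66 on DHA, and 0 genes passed the threshold in either contrast. Both contrasts use the same 4 OD livers.

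Sult3a1, which sulfonates amines and is known as a female-predominant gene of mouse liver, had the widest change. Its level was 5.48, 1.75, 0 and 0 CPM in the OD livers, 191, 93.9, 6.55, 2.14 and 483 on EPA and 327, 0, 92.7, 2.14 and 5.85 on DHA. The 3 highest, EPA 5, DHA 1 and EPA 1, are the livers with high Xist. EPA 2 and DHA 3 were intermediate and had Xist below 7 CPM, and the other 9 were at most 6.55 CPM. The log2 change was 6.16 ± 1.78 on EPA (adjusted p = 0.438) and 5.33 ± 1.87 on DHA (adjusted p = 0.720, edgeR's quasi-likelihood test). In the fit of all 42 libraries the change on EPA did pass (6.12 ± 1.13, adjusted p = 0.00540), and without the livers with high Xist the gene had too few counts for a test. Its neighbour Sult3a2 was at 18.7 to 76.1 CPM in the livers with high Xist and at most 4.41 in the others.

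The promoter of Sult3a1 is shown because this gene had the widest diet change in liver, and the capitals mark a match to the palindrome TTCNNNGAA, bound by STAT factors. The window runs from 250 bases before to 50 after the start of the gene in RefSeq, at chr10:33857472-33857771 of GRCm38.p6 on the plus strand.
Sult3a1: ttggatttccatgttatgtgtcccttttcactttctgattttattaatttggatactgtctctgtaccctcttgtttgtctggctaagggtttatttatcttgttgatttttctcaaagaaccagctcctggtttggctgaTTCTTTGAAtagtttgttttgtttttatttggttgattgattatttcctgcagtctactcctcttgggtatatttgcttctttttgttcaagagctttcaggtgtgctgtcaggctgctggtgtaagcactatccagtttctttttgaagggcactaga
The promoter of Gsta3, the most abundant transferase of liver, at chr1:21240335-21240634 on the plus strand, holds in capitals a match to TGACNNNGC, the core of the antioxidant response element.
Gsta3: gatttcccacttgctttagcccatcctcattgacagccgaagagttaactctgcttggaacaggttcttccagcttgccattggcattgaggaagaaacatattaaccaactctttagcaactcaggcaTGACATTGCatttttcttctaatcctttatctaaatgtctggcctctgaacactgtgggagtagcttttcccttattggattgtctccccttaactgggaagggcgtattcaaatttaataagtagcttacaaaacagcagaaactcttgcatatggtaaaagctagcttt
RefSeq windows were found for 55 of the 63 genes, 66 in all, and 3 motifs were searched on both strands. TTCNNNGAA was in 4 of 66 windows (6.06%, against 8.30% of all 32851 windows) and TGACNNNGC in 3 (4.55% against 12.4%). GTTAATNAT, part of the site of the liver factor HNF1, was in 8 (12.1% against 0.801%), those of Ugt1a1, Ugt1a9, Ugt1a10, Sult1d1 and Sult2a3 to Sult2a6. A match is a stretch of letters and no measured binding, and neighbouring Sult2a and Ugt1a genes are related in sequence.

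An unadjusted p under 0.05 on EPA was also found for Ugt1a8, Gstm7, Ugt2b1, Ugt2b35, Ugt2b5 and Sult2a8, and on DHA for Ugt2b1, Ugt2b35 and Ugt1a9. The log2 values on EPA were -0.81 ± 0.34 for Gstm7 and -0.53 ± 0.20 for Ugt2b5, neither past the adjusted threshold. Ugt2b35 was at 68.5, 47.3, 61.3 and 63.5 CPM on OD, 41.1, 27.1, 28.4, 38.5 and 55.2 on EPA and 38.7, 40.8, 15.5, 36.3 and 37.0 on DHA. All DHA livers and 4 of 5 EPA livers were below the lowest OD liver. The log2 change was -0.64 ± 0.24 on EPA (adjusted p = 0.669) and -0.83 ± 0.25 on DHA (adjusted p = 0.712). Ugt2b1 was at 171, 158, 270 and 217 CPM on OD, 120, 104, 179, 96.3 and 110 on EPA and 61.9, 128, 104, 156 and 168 on DHA, and 1 EPA and 1 DHA liver reached the OD range. Its log2 changes were -0.73 ± 0.25 (adjusted p = 0.613) and -0.71 ± 0.25 (adjusted p = 0.720). Ugt2b36, the most abundant of the Ugt2b genes, had changes of -0.18 ± 0.13 and -0.14 ± 0.13.

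Sult2a8 was at 506, 617, 613 and 439 CPM on OD, 393, 188, 491, 385 and 272 on EPA and 228, 545, 185, 500 and 483 on DHA. The lowest livers were DHA 3, EPA 2, DHA 1 and EPA 5, the same 4 that, with EPA 1, had Sult3a1 above 90 CPM. The log2 change was -0.64 ± 0.30 on EPA (adjusted p = 0.731) and -0.48 ± 0.30 on DHA (adjusted p = 0.835). Gsta3 was at 740, 829.2, 484 and 1050 CPM on OD, 554, 649, 672, 364 and 898 on EPA and 509, 585, 592, 650 and 862 on DHA. The Ugt1a8 row was at 526, 591, 478 and 454 CPM on OD, 772, 687, 652, 479 and 734 on EPA and 669, 498, 664, 564 and 616 on DHA. Both overlapped between all diets.

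Besides Sult3a1 and Sult3a2, Gsto1 and Gstp1 separated the livers with high Xist from the rest. Gsto1 was at 59.0 to 72.9 CPM in these 3 and lower in each of the other 11 (median 35.1). Gstp1, known as a male-predominant gene of mouse liver, was at 105 to 151 CPM against 155 to 678. With Sult3a1 and Gsto1, 2 of 34 tested genes had all 3 of these livers above the other 11, beside 0.697% of all genes, and 1 of 34, Gstp1, had all 3 below, beside 0.837%. Libraries were set apart here by Xist and not by a label, so no test was made.

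Known sex-biased genes of liver separated the same 3 livers in sum, but for the most part not gene by gene. Of 7 female-biased markers 1, Cyp2a4, was higher in all 3 than in the other 11, and of 8 male-biased markers 1, Mup20, was lower in all 3. The others overlapped. Mup20 made up most of the male-biased sum of the other livers on average, with a mean of 2216 CPM. The 7 female-biased markers summed to 846 to 883 CPM in the livers with high Xist and 15.0 to 781 in the others. The 8 male-biased markers summed to 408 to 426 against 466 to 7127. EPA 2 and DHA 3, the livers with intermediate Sult3a1, had the lowest male-biased sums of the remaining 11, 466 and 640, and the highest levels of the estrogen sulfotransferase Sult1e1, 184 and 155 CPM, where the other livers had 3.87 to 57.8. In DHA 3 the female-biased sum was 781 and the rows of Sult2a1 to Sult2a7, enzymes for steroids and bile acids, summed to 353 CPM, the highest of all livers. Y-linked counts were 74 in EPA 2 and 22 in DHA 3. What sets these 2 livers apart was not tested.

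**Figure D5:**
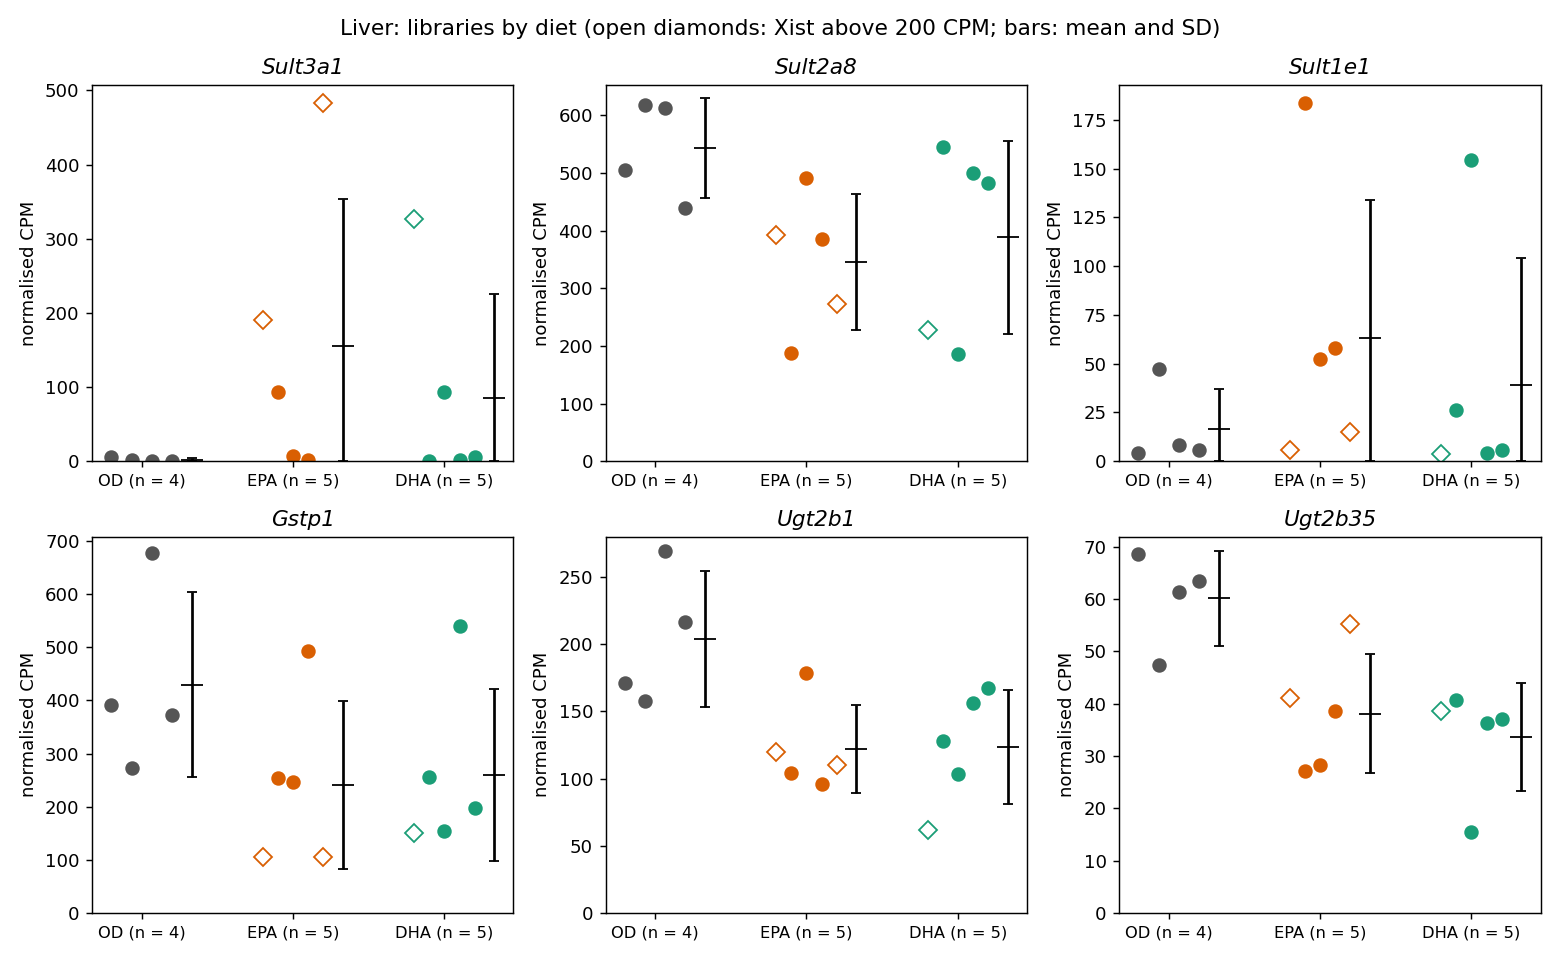
Normalised CPM of 6 transferase genes in each liver library by diet, with mean and SD (lower bars end at 0). Open diamonds are the 3 livers with Xist above 200 CPM. They are the 3 highest for Sult3a1, at 191 to 483 CPM, and the 3 lowest for Gstp1, at 105 to 151 CPM. All OD libraries of Ugt2b35 lie at 47.3 CPM or more.

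Among the partner genes of liver 0 passed in any list. Those with the smallest p over the 3 diets were the conjugate exporter Abcc3 (log2 change 1.20 ± 0.34 on EPA and 1.14 ± 0.35 on DHA), the peptidase Anpep (0.23 ± 0.27 and -0.75 ± 0.31) and Ugdh, which makes UDP-glucuronate (-0.62 ± 0.18 and -0.43 ± 0.18). Their adjusted p in single contrasts against OD was 0.438 to 0.936.

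Skin depth allowed a diet test of 3 genes, Gsta4, Gsto1 and Gstp1, and 0 passed in any of 3 contrasts, as did 0% of 2133 genes. At an unadjusted p under 0.05 there were 0 of 3, beside 4.17% of all genes for EPA minus OD and 2.16% for each other contrast, and DESeq2's test called 0. Gsto1 was at 266, 331, 191 and 228 CPM on OD, 107, 122, 246, 191 and 320 on EPA and 165, 131, 226, 249 and 116 on DHA, with log2 changes of -0.40 ± 0.30 and -0.52 ± 0.30. Gsta4 was at 154, 113, 29.3 and 156 CPM on OD, 29.3, 32.5, 20.5, 54.7 and 111 on EPA and 215, 14.5, 63.4, 74.6 and 58.2 on DHA. Its change on EPA was -1.09 ± 0.56, with a 95% interval of -2.18 to -0.00 under a normal approximation. By edgeR's quasi-likelihood test the unadjusted p was 0.0636 and the adjusted p 0.975. Gstp1 was at 71.7, 87.1, 103 and 120.0 CPM on OD, 87.9, 73.1, 102, 54.7 and 67.6 on EPA and 61.3, 116, 86.0, 124 and 136 on DHA. All 3 overlapped between diets, and intervals of this width do not show that the diets act alike. Sult2b1 and the Ugt1a8 row had too few counts for the test. Sult2b1 was at 71.7, 17.4, 29.3 and 71.98 CPM on OD, 68.4, 32.5, 20.5, 95.7 and 67.6 on EPA and 85.8, 43.6, 58.9, 74.6 and 77.7 on DHA. The Ugt1a8 row was at 71.7, 60.9, 0 and 71.98 CPM on OD, 68.4, 40.6, 61.4, 0 and 61.5 on EPA and 18.4, 43.6, 45.3, 124 and 136 on DHA. Of the partner genes 0 passed in skin, where 1 to 9 genes of a list were tested, and the smallest p belonged to Impad1, Mgst1 and Glrx.

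Whether a diet effect differed between tissues was tested as an interaction over all 42 libraries. Of the 37 genes 0 passed in the 6 contrasts. Of all 9912 genes 0.0404% passed for EPA and 0.0202% for DHA in liver minus aorta, and 0% in the contrasts with skin. An unadjusted p under 0.05 was found for 1 to 5 of the 37, beside 4.26% to 7.57% of all genes. The smallest adjusted p, 0.395, belonged to Gstz1, whose change on DHA was lower in liver than in aorta by a log2 difference of -0.87 ± 0.30. For Gsta4 the change on DHA in liver was 0.25 ± 0.37, and its difference from aorta was -1.02 ± 0.61 (adjusted p = 0.744). A change of Gsta4 that is particular to the aorta was therefore not shown.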

How the data were processed

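RNA of ear skin, aorta and flushed liver was made into libraries from 10 ng with a QIAseq UPX 3′ kit that tags each molecule, per the labels' protocols. The authors deposited whole-number counts of 48709 genes in 42 libraries. The submitters' processing notes name GRCm38.p6 and edgeR without a version, and the aligner, the counting program and the use of molecular tags were not given in the sources used here. A second table of scaled values, deposited by the authors, was not used.

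Groups came from the labels' tissue and diet. Within a tissue, 1 model held the 3 diets (edgeR 4.0.16 under R 4.3.3). Genes were kept by filterByExpr at a minimum count of 10, scaled by TMM and tested by quasi-likelihood, and p-values were adjusted over all genes of a contrast by Benjamini-Hochberg with a threshold of 0.05. Tissues and interactions were tested in a fit of all 9 groups, with libraries as independent, since the labels do not link tissues of a mouse; any such sharing is not in these p-values. Standard errors are the log2 change over the square root of F. The 95% intervals use a normal approximation with these errors, so they can be narrower than the test allows. Tests covered 2133, 6538 and 5018 genes for skin, aorta and liver. Normalised CPM are counts per 1000000 of all counts, adjusted by TMM factors within a tissue, and the ratios to liver use plain CPM. Replicates of a group were compared for duplicates, and the smallest chi-square per degree of freedom was 1.75 among 78 pairs. On simulated counts of DHA minus OD, 53% of 2-fold and 89% of 4-fold changes were recovered in aorta, 47% and 95% in liver and 50% and 83% in skin. Calls among genes left unchanged were 7 in aorta, 3 in liver and 11 in skin. The changed genes were drawn at random from all tested genes, so these rates are not those of the transferases.

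Values in every library are given for genes past the threshold in a diet contrast, for the 3 with the smallest p over the 3 diets in each tissue and for the most abundant of each family, and for others by range. Sult1e1 and Gstp1 of liver, Gsta1 of skin and the NRF2 targets Nqo1 and Gclc were singled out after their values were seen. Genes and lists were chosen with earlier results of these data known. Alternatives were DESeq2 1.42.0, its size factors, total counts, no filter, other sets of libraries, thinned counts, summed Ugt1a rows and 2 added after seeing the data: an adipocyte covariate, and subtraction of liver-level counts. Floors of 3 counts cover counting error only.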

Additional observations from a re-analysis of the deposited data

Results flagged for a closer look

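Within groups of 4 or 5 libraries, 1 library stood far from the rest in 5 of 51 groups of the genes given by library, and chance flags about 1 in 20 groups. In liver on DHA, library 1 had 327 CPM of Sult3a1 and the next had 92.7, and that library has high Xist. In the same group library 3 had 15.5 CPM of Ugt2b35, below a nearest value of 36.3. On EPA the liver of library 3 had 179 CPM of Ugt2b1, above a nearest value of 120. In aorta on EPA library 3 had 262 CPM of Gstm1 and the next 235. In skin on OD library 3 had 0 CPM of the Ugt1a8 row and the nearest 60.9, at a depth where 3 counts are 13.6 to 74.7 CPM.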

How the results depend on the processing

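For DHA minus OD in aorta the count of transferase genes called, 1 by the reported fit, was 0 with DESeq2's test, with total counts, in a common fit of all 9 groups, without the libraries with high Xist, with thinned counts and with the adipocyte covariate. It was 2 with DESeq2's size factors, with no filter and without the EPA libraries, with Gstz1 or Ugt1a6b as the second gene. The Ugt1a6b row had 13 counts in aorta, all in 1 OD library, so its call is not read as a diet effect. Leaving out each library gave 0 to 2 for DHA minus OD and 0 to 1 for EPA minus OD, where no filter gave 1. The change of Gsta4 on DHA kept its direction (0.45 to 1.56), with adjusted p of 0.0587 under DESeq2, 0.0787 with total counts, 0.204 in the common fit and 0.0715 without high Xist. On EPA it reversed to -0.27 with the adipocyte covariate. In liver no filter gave 9, 13 and 6 genes for EPA minus OD, DHA minus OD and EPA minus DHA, with an adjusted p for Sult3a1 of 1.7e-61 on EPA that the spread of its libraries does not bear out, so these counts are not read as diet calls. The common fit gave 1 for EPA minus OD, Sult3a1 (6.12 ± 1.13, adjusted p = 0.00540). The cause was not tested. Between tissues the genes lower in liver than in aorta were 5 with total counts and 5 with no filter, and those lower than in skin 5 with total counts. Thinned to the lowest total, 12 genes were tested, with 11 higher and 0 lower in liver against aorta, 12 and 0 against skin, and 5 and 1 in aorta against skin, since fewer genes passed the filter. Leaving out each of 42 libraries gave 31 to 33 and 2 to 3, 29 to 31 and 3 to 3, and 10 to 14 and 7 to 9. Subtracting liver-level counts gave 35 calls between liver and aorta, 33 between liver and skin and 19 between aorta and skin, where Sult2a8 was no longer called and Gsta3 was. Total counts moved the median of all genes by over 0.1, to -0.17 and -0.25 for EPA and DHA minus OD in aorta and to 0.15 for both in liver. Of all genes, DESeq2's test called 145 for EPA minus OD in aorta, against 18 by the reported fit. Shares of all genes are not set beside most other counts of this section. Those counts of transferase genes only show whether a call held and are no result about the families. No paired analysis was made. The library numbers used here follow the listed order of samples within a group, and no label ties them to mice. High Xist fell on EPA 1, EPA 5 and DHA 1 of every tissue, and whether the numbers follow the same mice was not tested. Depth limits the diet test to 3 genes in skin and 12 in aorta.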
